A study of Mus musculus with 2 samples.

Results

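Genes of autophagy and cell death were described here by the FOS peaks assigned to them in granulosa cells of the mouse ovary, which line the follicle and nurse the oocyte. Members were all protein-coding genes whose symbol marks them as autophagy-related (Atg), BCL2 family (Bcl2), caspase (Casp), inhibitor of apoptosis (Birc), TNF receptor superfamily (Tnfrsf), TNF receptor-associated factor (Traf) or growth arrest and DNA damage inducible (Gadd45) genes. There were 81 such genes among the 21887 protein-coding genes of the nuclear chromosomes, and 18 of the 2374 FOS peaks belonged to them. A peak belonged to a gene if the authors' annotation named that gene as the nearest by transcription start site (TSS) or as the gene holding the peak. The 2 pseudogenes that also match the symbols, Casp16 and Atg4a-ps, were left out.

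Donors were wild-type female mice aged 25 days and primed with PMSG, a gonadotropin that makes follicles grow. Cells were taken by follicle puncture 3 h after hCG, which mimics the luteinizing hormone surge that triggers ovulation. Chromatin was immunoprecipitated with an antibody to FOS, which pairs with JUN proteins to form the AP-1 transcription factor. The series holds 2 libraries from cells of this genotype and treatment. The library labelled FOS ChIP was used, and the other, whose label names no antibody, was not analysed here. With 1 library there is no replicate, no untreated group and no test between conditions. The values below describe 1 peak list, and the depth behind it is unknown. Of 13 granulosa marker genes 6 had a peak (46.2%, exact 95% interval 19.2 to 74.9, against 8.68% of all protein-coding genes), as had 2 of 8 for theca and stroma, 1 of 6 for endothelium and 1 of 7 for leukocytes, and none of the 6 oocyte or 5 surface epithelium markers. The intervals of these small lists overlap, so the counts do not separate the cell types. A peak near a gene does not show that the gene is expressed.

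Most ovarian follicles are lost to atresia, in which granulosa cells die by apoptosis, and the luteinizing hormone surge is known to make granulosa cells of ovulatory follicles resistant to it. Death receptors of the TNF receptor superfamily signal through TRAF adaptors or caspase-8, and BCL2 family proteins set the release of cytochrome c from mitochondria, which starts caspase-9. Autophagy wraps cytoplasm in a membrane for delivery to lysosomes and is run by the ATG proteins. GADD45 proteins are small stress sensors that act on cell cycle and MAP kinase pathways.

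Of the 81 genes, 13 had at least 1 FOS peak (16.0%, exact Clopper-Pearson 95% interval 8.83 to 25.9, which covers counting error only). Among all protein-coding genes the share was 8.68% (1900 genes), so the share of members was 1.85 times as high, and the background lay just below the lower end of their interval. The interval makes no allowance for members having been chosen with earlier results of these data known. The background lay inside it in 5 of 9 alternative settings. One of these left out the 5 genes that only carry a family name, such as Traf3ip2 (12 of 76 covered, 15.8%, interval 8.43 to 26.0). The covered members were longer than the uncovered ones, with a median gene span of 36.0 kb against 20.1 kb. Over all protein-coding genes these medians were 43.0 kb and 15.9 kb, and the median span of the 81 members was 22.4 kb against 17.2 kb for all genes. The part of gene size in the coverage was not tested. The families differed in their counts. Peaks were assigned to 5 of 18 Atg genes, 3 of 13 Bcl2 genes, 3 of 20 Tnfrsf genes, 1 of 10 Traf genes and 1 of 4 Gadd45 genes, and to none of 11 Casp or 5 Birc genes. The exact interval for the 0 of 11 Casp genes reached 28.5% and that for the 0 of 5 Birc genes 52.2%, so neither count lies apart from the background.

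**Figure D1:**
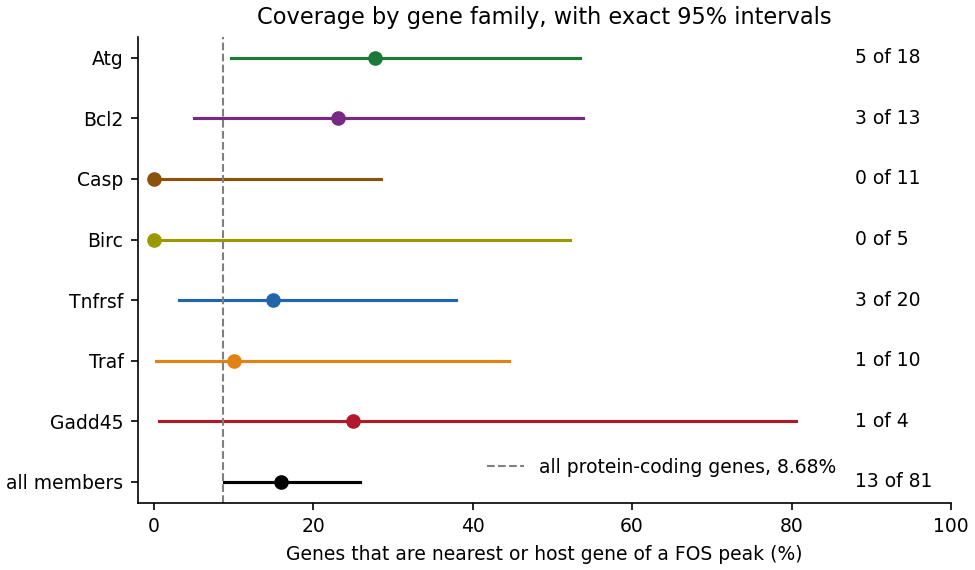
Share of genes in each family that are the nearest or host gene of at least 1 FOS peak, in percent, with exact 95% intervals as horizontal lines and the count at the right. The dashed line marks all protein-coding genes at 8.68%. It falls inside the interval of every family but Atg (27.8%, interval 9.69 to 53.5). The intervals make no allowance for comparing 7 families or for choosing members with earlier results known.

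Peaks of 3 members lay at a stretch of known sequence, which shows some of the bases under each peak. FOS with a JUN partner is known to bind the AP-1 element, searched here as TGACTCA and its reverse complement TGAGTCA. ATF and CREB proteins, some of which pair with JUN, bind the cAMP response element (CRE), searched as TGACGTCA, which reads the same on both strands. The lines below are RefSeq sequence of GRCm38.p6 (mm10), 5′ to 3′, and capitals mark a match. The Atg5 line is chr10:44268213-44268368 on the plus strand, which is the part of the promoter window under the Atg5 peak up to 30 bases past the TSS. The Tnfrsf23 line is chr7:143685846-143685953 on the minus strand, ended in the same way. The Bcl2l14 line is chr6:134450876-134451002 on the plus strand, inside a peak that the authors assigned to Bcl2l14 and that lies in an exon of Lrp6. Unlike the others, it comes from the promoter window of a long noncoding RNA gene, Gm52921, and was chosen for its match, with 60 bases shown on either side.
Atg5 promoter: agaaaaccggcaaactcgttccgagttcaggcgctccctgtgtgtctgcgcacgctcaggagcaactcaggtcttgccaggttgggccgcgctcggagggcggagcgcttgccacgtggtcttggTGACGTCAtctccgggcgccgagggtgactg
Tnfrsf23 promoter: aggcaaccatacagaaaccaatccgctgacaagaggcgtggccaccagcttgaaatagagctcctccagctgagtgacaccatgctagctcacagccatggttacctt
Bcl2l14 peak in Lrp6: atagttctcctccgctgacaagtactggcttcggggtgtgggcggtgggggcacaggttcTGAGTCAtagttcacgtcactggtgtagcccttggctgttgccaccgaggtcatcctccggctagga

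The Atg5 stretch holds a CRE whose centre lies 33 bp from the peak centre. The stretch under the Bcl2l14 peak holds an AP-1 element 6 bp from the peak centre. No match stood in the Tnfrsf23 stretch. These are descriptions of letters, and the parts of each peak outside the promoter windows were not searched.

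Across 81 promoter windows of 300 bp that belong to 70 members, 2 held the AP-1 letters (2.47%, exact interval 0.300 to 8.64), at Tnfrsf8 and Tnfrsf9. The share over all 21263 windows of protein-coding genes was 4.66%, and it was 24.4% over the 308 windows that overlapped a FOS peak. The CRE letters stood in 3 member windows (3.70%), at Atg5, Atg16l2 and Birc2, against 2.23% of all windows and 8.12% of those under a peak. The 4 matches in windows outside a peak are printed with a few bases on either side. Their first bases lie at -18 bp (Atg16l2), -35 bp (Birc2), -132 bp (Tnfrsf8) and -15 bp (Tnfrsf9) from the TSS of the window. The printed stretches are Atg16l2 (chr7:101302088-101302117, minus strand), Birc2 (chr9:7837074-7837103, minus strand), Tnfrsf8 (chr4:145315279-145315307, minus strand) and Tnfrsf9 (chr4:150927973-150928001, plus strand).
Atg16l2 window: tgctgccgcccTGACGTCAtggagtccccg
Birc2 window: tgcgcgtctgcTGACGTCAcctcaacggcc
Tnfrsf8 window: gtggctagcccTGAGTCAtctctgcacgt
Tnfrsf9 window: ccctgctcagtTGAGTCAcaggtcctgtg

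The Atg16l2 element lay 72 bp outside the edge of the Atg16l2 peak. The Tnfrsf9 element lay 12390 bp from the Tnfrsf9 peak, at another annotated start of that gene. Birc2 and Tnfrsf8 had no peak, and the nearest peak of any gene was 166 kb and 3841.1 kb away.

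Among the receptors, Tnfrsf12a had the strongest FOS peak of all members. It encodes FN14, the receptor for the cytokine TWEAK, which signals through TRAF adaptors and has no death domain. Its best peak, at chr17:23676582-23677061 (mm10), had a score of 262. The score is the authors' whole-number value for each peak and is used here for ranking alone. This one was rank 48 of 2374, in intron 1 of 3 and 628 bp downstream of the TSS. A further peak of score 72 lay at the 3′ end of the gene, 1.44 kb from the first by their centres. The authors named Thoc6 as the nearest gene for it, and it also overlaps the gene span of Hcfc1r1. Tnfrsf23, which encodes a decoy receptor for the death ligand TRAIL, had a promoter peak of score 40, rank 1937. Tnfrsf9, the costimulatory receptor 4-1BB, had its peak in intergenic sequence 4.7 kb upstream, with a score of 19 and rank 2342 and so near the bottom of the list.

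The other 17 Tnfrsf genes had no peak. The 3 of 20 covered made 15.0% (exact interval 3.21 to 37.9, against 8.68% of all protein-coding genes). Tnfrsf22, a neighbour and relative of Tnfrsf23, lay 36.0 kb from the Tnfrsf23 peak. The TNF receptors themselves were farther off, with 64.0 kb for Tnfrsf1a and 3786.3 kb for Tnfrsf1b. Tnfrsf10b, the mouse receptor for TRAIL, lay 150 kb from a peak, and Tnfrsf11b, which encodes osteoprotegerin, 563 kb. All 7 adaptor genes, Traf1 to Traf7, were without an assigned peak. This count does not set them apart, as only 8.68% of all protein-coding genes were covered. The closest was Traf4, with a peak of score 95 assigned to Rab34 at 22.6 kb. Traf2, an adaptor shared by many receptors of the family, lay 56.8 kb from a peak and Traf6 95.8 kb. The 1 covered gene with a Traf symbol was Traf3ip2, which encodes the interleukin-17 receptor adaptor ACT1 and is no TRAF itself. Its peak scored 58 and lay 41.8 kb upstream, 5.58 kb from the gene span of Fyn.

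**Figure D2:**
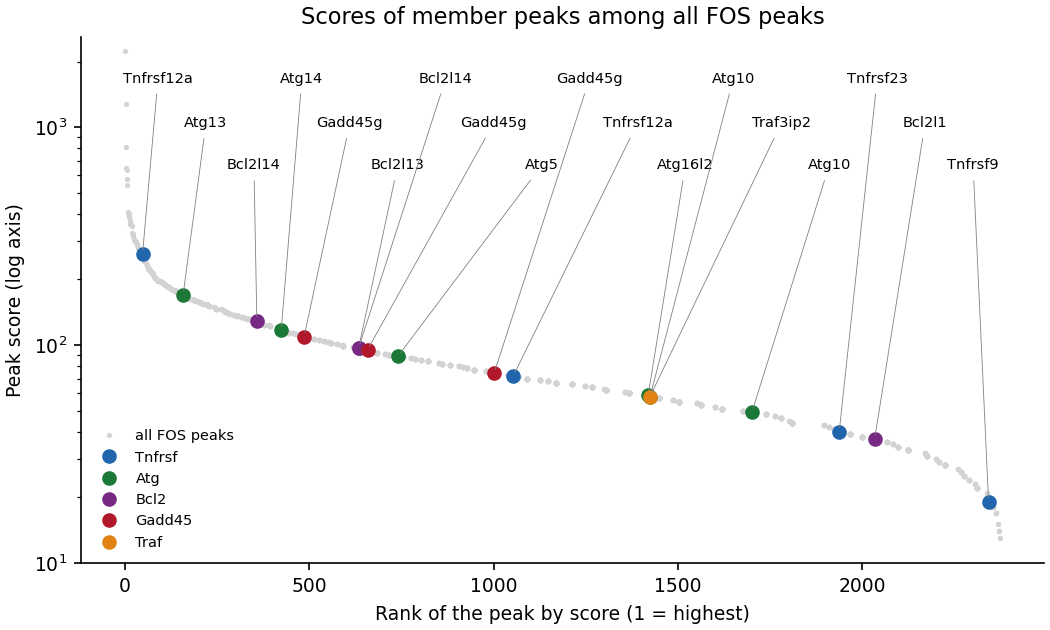
Score of each FOS peak (log axis) against its rank, with grey points for all peaks and coloured, named points for the 18 peaks of members. Tnfrsf12a leads at 262 and Tnfrsf9 ends the row at 19, and the peaks between them spread along the whole curve.

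In the BCL2 family, peaks were assigned to 1 of 8 survival genes and 2 of 4 genes of less settled role. The 1 death-promoting gene of the family, Bcl2l11, had none. Over all protein-coding genes the share was 8.68%, and counts this small do not set the roles apart. Bcl2l1, which encodes the survival protein BCL-XL, had a single peak of score 37 in intron 2 of 2, lying 25.6 kb downstream of the TSS. This was rank 2033. Bcl2l13, a BCL2-like protein of the outer mitochondrial membrane that serves as a mitophagy receptor, had a peak in intron 4 of 6 that scored 97. Bcl2l14 had peaks of score 129 and 97, both inside other genes. The first lay in exon 23 of 23 of Lrp6, 54.6 kb downstream of the Bcl2l14 TSS and 12.0 kb outside its span, and is the peak whose AP-1 element is shown above. The second lay in intron 5 of 7 of Etv6, 144.3 kb upstream. Coverage of Bcl2l14 thus rests on peaks that another gene holds.

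Bcl2 itself had no assigned peak, and the nearest, of score 62 and assigned to Kdsr, lay 44.7 kb away. Bcl2l11, the gene of the death-promoting protein BIM, lay 220 kb from a peak. Bcl2l12 was 4.75 kb from a peak of score 53 assigned to Irf3. Bcl2l2, which encodes BCL-W, and Bcl2l15 lay 39.2 kb and 40.6 kb from a peak. The immune survival genes Bcl2a1a, Bcl2a1b, Bcl2a1c and Bcl2a1d lay 360 kb (Bcl2a1c) to 1100.0 kb (Bcl2a1d) away. Bcl2l10, known for its expression in oocytes, lay 151 kb away.

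Caspase genes encode proteases, several of which carry out cell death. None of the 11 Casp genes, which include Casp8ap2, named for binding caspase-8, had a peak within 50 kb of its span (exact upper limit 28.5%, against 18.2% of all protein-coding genes, so the count does not lie apart from them). The median distance to the nearest peak was 421 kb for these genes. Over the 21631 protein-coding genes on chromosomes with a peak the median was 279 kb, and over all members it was 141 kb. Casp2 was nearest, at 67.0 kb. Casp6 lay 1171.1 kb from a peak. The initiators Casp8 and Casp9 lay 421 kb and 368 kb away. Casp1, Casp4 and Casp12 are neighbours on chromosome 9 and lay 2630.2 kb (Casp12) to 2696.0 kb (Casp1) from the same Yap1 peak, so their distances are not independent. The Birc genes, whose products block caspases or, for Birc5 (survivin), act in cell division, lay 105 kb (Birc6) to 7138.0 kb (Birc7) away. Birc2 and Birc3, which adjoin each other, shared the Yap1 peak of score 187 as their nearest, at 166 kb and 130 kb.

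**Figure D3:**
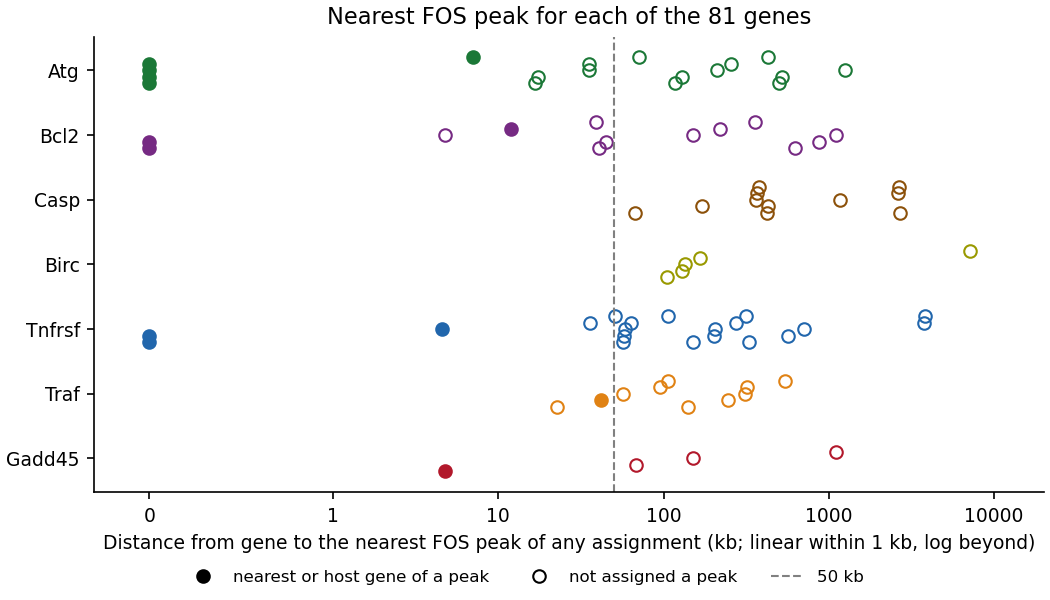
Distance from the span of each of the 81 genes to the nearest FOS peak of any assignment, in kb (linear within 1 kb, log beyond), by family. Filled points are genes with an assigned peak, and the dashed line marks 50 kb. All Casp and Birc genes lie beyond the line.

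Autophagy genes made up the largest group of covered members. Atg13, a subunit of the ULK1 kinase complex that starts autophagy, had the second highest score of the members with 170 (rank 158), in intron 1 of 15 and 14.2 kb downstream of the TSS. Atg14, which directs the phosphatidylinositol 3-kinase complex to autophagy, had a peak in intergenic sequence 34.8 kb downstream, which scored 117. That peak was 7.01 kb beyond the end of Atg14 and 1.48 kb from Fbxo34. The remaining covered Atg genes belong to the ATG12 conjugation step or are related to its ATG16 partner. Atg5, which accepts ATG12, had a promoter peak of score 89, centred 16 bp from the TSS. Atg10, the enzyme that transfers ATG12, had intronic peaks of score 58 and 49 lying 50.4 kb apart. Atg16l2, a relative of the ATG5 partner ATG16L1, had a peak in intron 1 of 17 that scored 59, lying 199 bp downstream of the TSS.

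By step, 3 of 5 genes of ATG12 conjugation and its ATG16 partners were covered, with Atg12 and Atg16l1 at 256 kb and 429 kb from a peak. None of the 5 genes for processing and lipidation of ATG8 proteins had a peak (Atg3 and Atg4a to Atg4d), nor had the 4 for membrane and lipid supply (Atg2a, Atg2b, Atg9a and Atg9b). Atg7, the activating enzyme of both conjugations, lay 522 kb from a peak. These steps were set out after the peaks were known, so the 3 of 5 cannot be read as a result about that step. With 8.68% of all genes covered, counts of 0 among 4 or 5 genes do not set a step apart. Of the uncovered Atg genes, 4 lay within 50 kb of a peak, namely Atg4d (16.7 kb), Atg101 (17.3 kb, from a peak of score 99 assigned to Nr4a1), Atg2a (35.3 kb) and Atg4b (35.5 kb).

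Gadd45g had the most peaks of any member, 3 in a row downstream of the gene. Their scores were 109, 74 and 95 at 6.8 kb, 12.0 kb and 45.6 kb from the TSS. All were intergenic, the outer pair were 38.8 kb apart, and the next protein-coding gene, Sema4d, was 59.5 kb or more from each. Gadd45a and Gadd45b, its closest relatives, had no peak, and the nearest lay 1108.8 kb and 67.7 kb away. Gadd45gip1, named for binding GADD45 proteins, lay 150 kb from a peak.

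As a set, the 18 peaks had scores of 19 to 262 with a median of 81.5, against 13 to 2234 with a median of 67 for all peaks. Of them 5 were among the 618 peaks that scored 99 or more (27.8% against 26.0% of all peaks). The peaks just inside that boundary were those of Gadd45g (109) and Atg14 (117), and just outside it were those of Bcl2l13 and Bcl2l14 (97 each). Their genomic classes were close to those of other peaks, with 8 in introns (44.4% against 44.7%), 6 intergenic (33.3% against 35.4%) and 2 in the promoter class (11.1%, exact interval 1.38 to 34.7, against 15.2%). The median width was 334.5 bp against 342 bp. Where the member was the nearest gene, 14 of 17 peaks lay downstream of its TSS (82.4% against 55.3% of all peaks). The upstream peaks among these belonged to Bcl2l14, Traf3ip2 and Tnfrsf9. With the Tnfrsf12a peak upstream of Thoc6 included, it was 14 of 18 (77.8%). More than 1 peak was found at 4 of the 13 covered members (30.8%), namely Gadd45g, Tnfrsf12a, Atg10 and Bcl2l14, against 16.7% of all covered genes. Peaks of the same gene were counted separately, and neither of these small counts carries an interval or was tested.

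**Figure D4:**
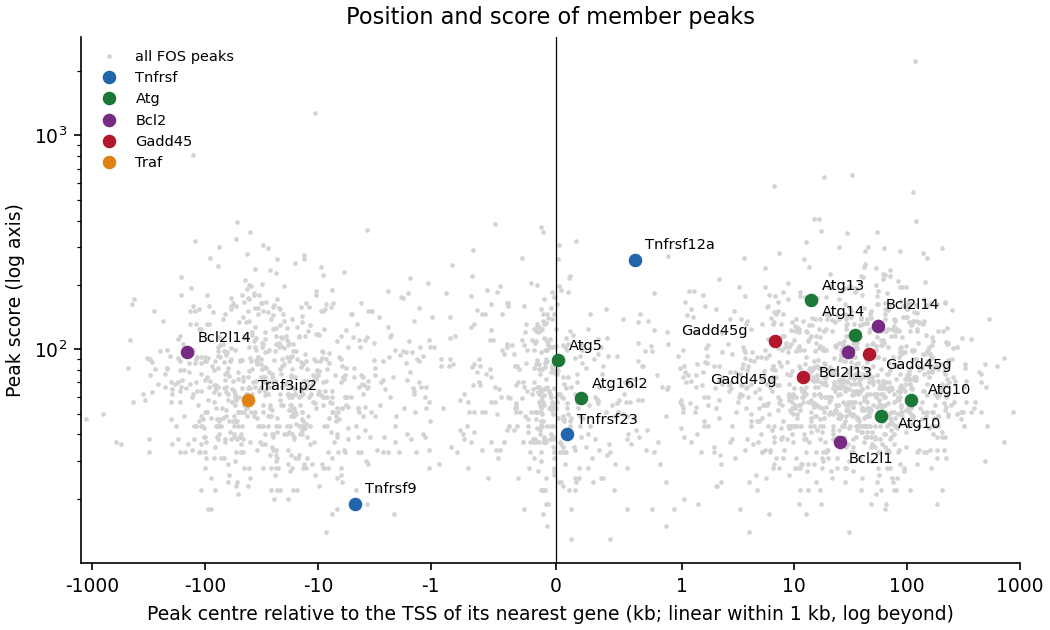
Peak score (log axis) against the signed distance in kb from the TSS of the nearest gene (linear within 1 kb, log beyond), for all peaks in grey and for the 17 peaks whose nearest gene is a member in colour. Of the coloured points 14 lie to the right of 0, downstream of the TSS, and the 3 peaks of Gadd45g sit between 6.8 kb and 45.6 kb.

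When a gene counted as covered by a peak of any assignment up to 50 kb from its span, this held for 23 of 81 members (28.4%) against 18.2% of all protein-coding genes. The 10 members gained were Atg101, Atg2a, Atg4b, Atg4d, Bcl2, Bcl2l12, Bcl2l15, Bcl2l2, Tnfrsf22 and Traf4. They were 10 of 68 uncovered members (14.7%), against 11.2% of all uncovered genes.

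Partners of these genes that carry other symbols were described from 5 lists. Of their 96 genes, 18 had a peak (18.8%, exact interval 11.5 to 28.0), against 8.68% of all protein-coding genes. That share lay inside the interval of each list except autophagy (12.1 to 49.4) and the damage response (12.8 to 64.9). The lists were chosen with earlier results of these data known, and 5 were compared. The intervals allow for neither, so they do not set these lists apart. In autophagy 7 of 25 were covered, led by Vmp1, a membrane protein needed to form autophagosomes (scores 151, 141 and 32, all in its introns). Wipi1, which reads phosphatidylinositol 3-phosphate, followed with 118, and Becn1, a subunit of the phosphatidylinositol 3-kinase complex, with 102 at its 3′ end. Lamp2, a lysosomal membrane protein, and Gabarapl1, an ATG8 protein, had intronic peaks of score 67 each. Of these, Vmp1, Becn1 and Gabarapl1 counted as host genes alone. The authors' nearest genes for their peaks were Mir8115 and Mir21a (Vmp1), Cntd1 (Becn1) and 1700101I11Rik (Gabarapl1). With the nearest gene alone, 14 of the 96 genes of all lists were covered (14.6%, interval 8.21 to 23.3, against 7.58%). Among BCL2 partners and mitochondrial genes 2 of 21 were covered. Mcl1, a survival protein with a short half-life, had peaks of score 158 (5.7 kb downstream of the TSS) and 123 (in intron 1 of 2). Cycs, the gene of cytochrome c, had a promoter peak of score 34, for which the authors named 5430402O13Rik as nearest. The death-promoting genes Bax, Bak1, Bid, Bbc3 and Pmaip1, named after values were seen, had none. With 8.68% of all genes covered, this does not set them apart. Bid lay 26.7 kb from the Bcl2l13 peak of score 97.

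Of 19 death ligands, receptors and adaptors, Tank, a TRAF-binding regulator of NF-kB, was the only covered gene. Its peaks scored 151, at 282.8 kb from its TSS, and 130, at 14.5 kb by the deposited distance but in the promoter class of Tank. Fas, Fasl, Tnf and Tnfsf12, the gene of the FN14 ligand TWEAK, had none. At a share of 8.68% over all genes, this does not set them apart either. In the NF-kB arm 3 of 17 were covered, with Map3k7, the kinase TAK1, scoring 166 and 98 in peaks 215.9 kb and 110.5 kb from its TSS. Tnfaip3, the NF-kB inhibitor A20, had a promoter peak of 99, and Rel an intronic peak of 68. In the damage response around GADD45 5 of 14 were covered. Ddit3, the gene of the stress factor CHOP, had a promoter peak of score 266 (rank 41), above all members. Cdkn1a, the cell cycle inhibitor p21, had 105 in intron 1 of 2, Ppp1r15a, also known as GADD34, had 76 and 23, and Mdm2, which degrades p53, had 69 inside Cpm. The Ppp1r15a peak of 76 lay in the promoter class of Plekha4, which was the nearest gene of the peak of 23. Trp53 itself had none.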

How the data were processed

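The deposited table holds narrow peaks of 1 FOS ChIP-seq library. Per the file headers, the authors annotated a narrowPeak file with annotatePeaks.pl, giving it a genome sequence and a gene annotation. The submitters' processing notes list the mm10 build, with deepTools 3.5.1, MACS2 2.2.7.1, BWA and Trim Galore as tools. No label or header used here states the peak threshold, a control library or a filter. The deposited peak score is the authors' own, on a scale not stated, and serves only to rank peaks within the list. Start, end and signed distance to the TSS were used as deposited. There are no read counts.

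All 1965 nearest-gene names and all host-gene names were matched to RefSeq genes of GRCm38.p6 by accession, symbol or older symbol. A member was covered if it was the nearest or host gene of a peak. Distances to gene spans, promoter sequences (250 bases before to 50 after a TSS) and letter searches used the RefSeq tables. No genome sequence was used, so most peaks were not searched. The distance and search functions were tested on simulated data. Exact 95% intervals are given for some of the shares, and no other test was run, because 1 library has no replicates.

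Members and lists were chosen with earlier results of these data known. Every covered member is named with each peak, uncovered members by their nearest peak (some items are not reported here), and the 4 genes with the highest score in each further list, with 1 more where scores tied. Uncovered genes of the further lists, the steps of autophagy, the CRE search and miR-21a were chosen after values were seen. Python 3.11.15 with numpy 2.4.6, pandas 2.3.3, scipy 1.17.1 and matplotlib 3.10.9 was used.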

Additional observations from a re-analysis of the deposited data

How the results depend on the processing

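The share of members with a peak stayed above that of all genes in each alternative run, and 4 settings moved it outside its interval: 8.64% with scores at or above the median (against 4.74% of all genes), 6.17% with scores of 99 or more (against 2.54%), 7.41% within 10 kb of the TSS (against 3.85%) and 28.4% with any peak within 50 kb of the gene (against 18.2%). The exact interval of members included the share of all genes in 5 of 9 alternatives: host genes alone (9.88%, interval 4.36 to 18.5, against 5.65%), both score limits (3.55 to 17.0 and 2.03 to 13.8), 10 kb (2.77 to 15.4) and family members alone. It lay above it in the other 4. Of the further lists, the interval included it with any peak within 50 kb of the gene (26.0%, interval 17.6 to 36.0). Member peaks numbered 10 with host genes alone, 11 at or above the median score, 5 at 99 or more and 7 within 10 kb. Families with a peak were 3 with host genes alone and 3 within 10 kb, against 5 of 7. At scores of 99 or more the median score was 129 and the promoter share 0%. These settings kept fewer peaks or used a wider window, and the cause of the moves was not tested. The other 27 of 39 alternatives stayed within the interval (for scores, the middle 50% of member peaks) or within 1.5 times the count. With the nearest gene alone, 13 of 81 members were covered (16.0%) against 7.58% of all genes. Without peaks inside another gene, an alternative added after seeing the data as were the 50 kb count of families and the CRE letters, it was 12 of 81 (14.8%) against 6.81%, the gene lost being Bcl2l14. Counts per family rest on 4 to 20 genes. No paired analysis was possible because the report uses 1 library.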

Other observations

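The Vmp1 peak of score 141 (rank 274), in intron 10 of 11, was assigned by the authors to the microRNA gene Mir21a, 2.9 kb upstream of its start. It lies at chr11:86586818-86587224 (mm10). In granulosa cells miR-21 is known to be induced by luteinizing hormone and to protect from apoptosis, and in mice the gene adjoins Vmp1. It is a cell death regulator that the gene symbols above do not reach. Mature sequences from RefSeq (GRCm38.p6) are given 5′ to 3′ with the seed, bases 2 to 8, in capitals, since the seed sets which messages a microRNA binds.
mmu-miR-21a-5p: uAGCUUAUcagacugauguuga
mmu-miR-21a-3p: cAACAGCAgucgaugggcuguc

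The data show a FOS peak upstream of this microRNA gene and hold no measure of the microRNA itself.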
